A study of Homo sapiens with 4 samples.

Results

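The 40 genes described here encode the enzymes of serine synthesis, folate-bound one-carbon metabolism, the methionine cycle and the synthesis, salvage and supply of purine, pyrimidine and deoxynucleotides. They were listed by symbol, and the list was drawn up with earlier results of these data known. All 40 symbols were matched among the 57820 Ensembl gene IDs of a complete file, and 35 of them were among the 10771 genes that could be tested. RNA was sequenced from MOLM-13, a cell line from a human acute myeloid leukaemia with a KMT2A fusion and an internal tandem duplication of FLT3. The untreated group held 2 libraries. The GADD45g group held 2 libraries of cells that received doxycycline (dox, labelled as 1 mg/ml) over 4 days and overexpressed GADD45G. This small nuclear protein is induced by stress and restrains growth. The study's design text describes these as biological replicate experiments. All cells were MOLM-13 grown in RPMI with fetal bovine serum. The sources used here do not give the promoter of the construct, whether untreated cells carried it, or whether the line was 1 clone. Doxycycline without the construct was not analysed here, so effects of the drug and of GADD45G cannot be told apart.

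Dividing cells draw one-carbon units mainly from serine, which is made from a glycolytic intermediate or taken up. Serine hydroxymethyltransferases pass a carbon from serine to tetrahydrofolate, and a mitochondrial and a cytosolic branch of folate enzymes convert it between the forms used for purine rings, thymidylate and methionine. Purine and pyrimidine rings are built on or joined to phosphoribosyl pyrophosphate (PRPP), and ribonucleotide reductase turns ribonucleotides into the precursors of DNA. These pathways are targets of antileukaemic drugs such as methotrexate, mercaptopurine and cytarabine. MYC, ATF4 and E2F proteins are known regulators of many of the enzymes.

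Levels are in RPKM, read numbers divided by the length of the gene and the depth of the library. The depths recovered from the values ranged from 15683931 to 18895470 reads, and the tested members had 78 to 6146 reads in a library. GADD45G itself was at 10.5 and 0.289 RPKM in untreated 1 and 2 and at 3236 and 2118 RPKM in GADD45g 1 and 2. The leukocyte and myeloid genes PTPRC, SPI1, CD33 and LYZ were expressed in all 4 libraries, while MPO was at 0.162 to 0.278 RPKM. FLT3 was at 0.958 and 1.19 RPKM in the untreated and at 0.0889 and 0.0451 RPKM in the GADD45g libraries and was not tested. Of 8 tested markers of the myeloid list, LYZ (4.00-fold lower) and CSF3R (6.11-fold lower) fell and ITGAM rose (1.78-fold higher). These shares, 25% lower and 12.5% higher, were near the 26.7% and 12.2% of all tested genes. The 12 myeloid markers (11 in GADD45g 1, where 1 was not listed) summed to 1320 and 1036 RPKM in the untreated libraries. In the GADD45g libraries the sums were 438 and 403 RPKM. Most of each sum was LYZ, at 1173 and 868 RPKM in the untreated and 268 and 242 RPKM in the GADD45g libraries. The sums therefore mainly follow LYZ and do not describe the list as a set. The part of the myeloid markers in the members' changes was not tested. Of 12 epithelial markers, 8 reached 1 RPKM in each replicate 1 library and 1 in each replicate 2 library. They summed to 47.9 and 44.4 RPKM in untreated 1 and GADD45g 1, and to 5.79 and 2.08 RPKM in untreated 2 and GADD45g 2. EPCAM and KRT19 were at 0 in untreated 2 and GADD45g 2, so the replicate 1 libraries stand apart in both groups. Members are therefore also compared within each replicate number below. The 8 listed erythroid markers, of which HBA1 and HBA2 were at 0 throughout, summed to at most 1.15 RPKM, and the 8 listed T cell markers to at most 1.54 RPKM. The median change of all tested genes was -0.21 on the log2 scale, and TMM scaling moved it by 0.22, so changes are best read against that median.

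Promoter sequences of the members were taken from RefSeq (GRCh38.p14), as windows of 300 bases with 250 before and 50 after an annotated start. At least 1 window was found for 35 members (53 windows in all), and PSPH, SHMT2, ALDH1L2, ADSL and IMPDH2 had none in the table. Both strands were searched for the E-box CACGTG, which MYC and related proteins can bind, for the E2F motifs TTCCCGC and TTGGCGC, for the composite element TGATGNAA that ATF4 can bind, and for CCAAT. A gene was counted if any of its windows held the motif. The members had more windows per gene than all 27305 genes, which had 35116 windows. The shares were not adjusted for this. The E-box was found in 9 members, or 25.7%, against 8.77% of all 27305 genes with a window and 13.1% of the 8398 tested genes with one. The E-box of PPAT and that of PAICS are the same site, counted for both genes. An E2F motif was found in 14 members (40%), against 11% of all genes and 18.1% of tested genes. CCAAT was found in 17 members (48.6%), against 39.7% and 43.5%, and TGATGNAA in 1 (2.86%), against 4.46% and 2.69%. CCAAT read on the opposite strand (ATTGG) can overlap TTGGCGC, as it did in MAT2A. These matches describe letters in a window and were not tested as binding sites. MTHFD1L and PAICS are shown because their RNA had the lowest change on the log2(RPKM + 1) scale in folate interconversion and in purine synthesis (on the RPKM scale PFAS had the larger fold), and the remaining stretches because they show the E-box or E2F letters beside the enzyme classes described below. Capitals mark the motif in every line but that between PPAT and PAICS, which holds none.

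The bases before the first MTHFD1L start, up to the end of its E-box, hold a CCAAT whose first base lies 40 bases before that start and the E-box 1 base before it. The composite element of the same gene lies 24 bases past that start and is shown separately.
MTHFD1L, chr6:150866083-150866337, plus strand: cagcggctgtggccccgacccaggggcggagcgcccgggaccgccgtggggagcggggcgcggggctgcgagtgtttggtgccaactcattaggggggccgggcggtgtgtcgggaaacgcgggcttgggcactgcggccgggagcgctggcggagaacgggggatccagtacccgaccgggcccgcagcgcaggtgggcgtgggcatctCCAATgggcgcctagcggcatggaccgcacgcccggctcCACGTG
MTHFD1L, chr6:150866346-150866375, plus strand: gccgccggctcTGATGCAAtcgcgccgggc

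PPAT and PAICS, which encode the first enzyme of purine synthesis and a bifunctional enzyme of its middle steps, start on opposite strands of chromosome 4. Their nearest annotated starts are 137 bases apart. The stretch between these starts holds none of the motifs searched, and the E-box lies 182 bases before the PPAT start, past the PAICS start.
Between PPAT and PAICS, chr4:56435616-56435751, plus strand: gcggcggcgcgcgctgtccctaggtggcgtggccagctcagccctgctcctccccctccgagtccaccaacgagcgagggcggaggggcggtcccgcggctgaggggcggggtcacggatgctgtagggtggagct
PPAT, chr4:56435780-56435809, minus strand: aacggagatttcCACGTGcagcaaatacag

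The other members with an E-box before an annotated start were MTHFD1, ATIC, DHODH, DCTPP1 and DCK, at 9 to 159 bases from it.
MTHFD1, chr14:64388326-64388355, plus strand: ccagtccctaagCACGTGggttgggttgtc
ATIC, chr2:215312001-215312030, plus strand: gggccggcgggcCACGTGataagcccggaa
DHODH, chr16:72008573-72008602, plus strand: gccgctactgcgCACGTGcacccaaccaga
DCTPP1, chr16:30429792-30429821, minus strand: ggagggttcctcCACGTGgtcgggaagcgg
DCK, chr4:70993521-70993550, plus strand: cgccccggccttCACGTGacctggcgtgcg

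Of the members that supply deoxynucleotides, 6 had an E2F motif before a start, between 12 and 223 bases from it. GCGGGAA and GCGCCAA are the motifs read on the opposite strand.
RRM1, chr11:4094451-4094479, plus strand: caagaaaaacgTTCCCGCcggttaggttt
RRM2, chr2:10122365-10122393, plus strand: ggggcccgcgcGCGCCAAggccgccgaga
TYMS, chr18:657603-657631, plus strand: gcgggacggccGCGGGAAaaggcgcgcgg
DUT, chr15:48332144-48332172, plus strand: gggcggggctgGCGGGAAatttcggtttt
DCK, chr4:70993446-70993474, plus strand: tccggaacctcTTCCCGCgccctgcccgg
TK1, chr17:78187047-78187075, minus strand: aagcggtcggcGCGGGAAccaggggctta

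Expression of most of these enzymes was lower in the GADD45g libraries. Of the 35 tested members, 32 fell (limma, Benjamini-Hochberg adjusted p under 0.05 over all 10771 genes), 0 rose, and PSPH, MTHFD2 and IMPDH1 did not pass the threshold. Across all tested genes, 26.7% were called lower and 12.2% higher. In 34 of the 35 members both GADD45g values lay under both untreated values, an order found in 45.8% of all tested genes. MTHFD2 was the exception. On reads recovered from the values, limma voom called 32 members lower and 0 higher, with 29.6% of all genes lower and 13.5% higher. With TMM scaling 28 members were called lower (19% of all genes, and 17.8% higher), and MAT2A, PRPS2, HPRT1 and RRM1 lost their call. With the median change of all genes shifted to 0 the count was 32 (18.9% of all genes, and 17.7% higher). The log2 change of RPKM + 1 (the scale of every log2 change below, which understates changes of low genes) had a median of -1.41 over the tested members, against -0.21 over all tested genes, and ran from -3.05 for MTHFD1L to -0.36 for MTHFD2. A change of -1 or lower was called in 26 members, and in 15.7% of all genes. On the RPKM scale, the 32 called members were 1.91-fold to 14.2-fold lower, with a median of 3.70-fold. In 19 of them the fold was at least 3, and in 9 at least 5. Without the filter on low values, 23 of 38 members were called lower, beside 1639 of the 20689 genes tested in that fit (823 were called higher). SHMT1, MAT2A, PRPS2, HPRT1, UMPS, CTPS2, RRM1, DUT and DCK lost their call in that fit (limma adjusted p from 0.0517 for DUT to 0.129 for HPRT1).

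Summed over the tested members, expression was 1041 and 990 RPKM in untreated 1 and 2 and 345 and 325 RPKM in GADD45g 1 and 2. The sums of the groups were far apart and those within a group close. They made up 0.356% and 0.340% of the RPKM total of all tested genes in the untreated libraries and 0.120% and 0.115% in the GADD45g libraries. Within replicate 1, all 35 tested members were lower in the GADD45g library (median 3.88-fold), where 60.6% of all tested genes were lower. Within replicate 2, whose libraries had KRT19 at 0, all 35 were lower as well (median 3.13-fold), beside 62.6% of all genes. In bulk RNA, fewer cells of a type and less RNA per cell cannot be told apart.

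**Figure D1:**
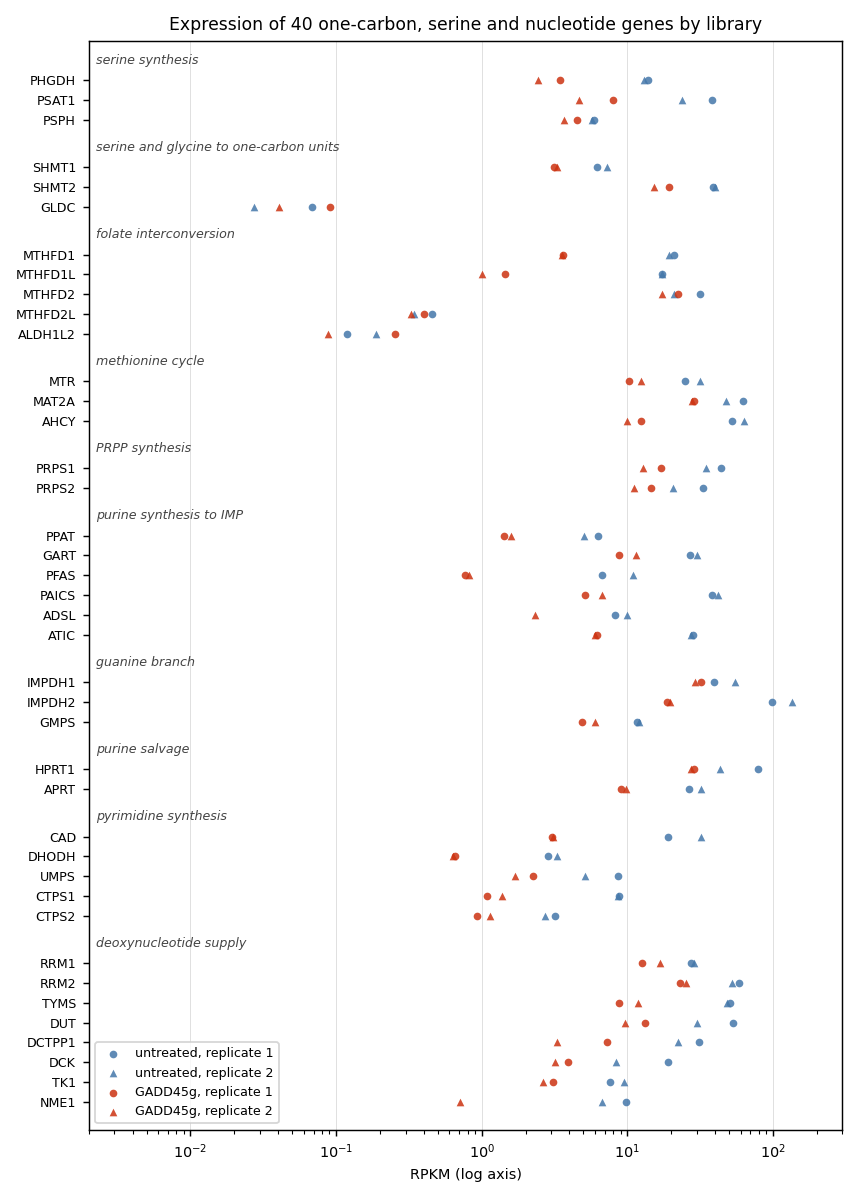
RPKM (log axis) of the 40 genes in each library, grouped by role. Blue points are untreated and red points GADD45g libraries, circles replicate 1 and triangles replicate 2. In all but MTHFD2 of the 35 tested members both red points lie left of both blue points, while GLDC, MTHFD2L and ALDH1L2 stay under 1 RPKM in every library. ADSL and NME1 have no GADD45g 1 value.

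The untreated libraries differed from each other by more than 1.5-fold in 9 of the 35 tested members. PSAT1, MTHFD2, PRPS2, HPRT1, UMPS, DUT and DCK were higher in untreated 1, and PFAS and CAD in untreated 2. Across all tested genes 21.8% differed by that much. The GADD45g libraries differed by more than 1.5-fold in 2 members, PSAT1 and DCTPP1, and in 14.8% of all tested genes. The plot of RPKM by library shows these differences as gaps between points of the same colour. The blue gap was not always the wider. In PHGDH, for example, the GADD45g libraries were 1.43-fold and the untreated libraries 1.06-fold apart.

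Of the 3 enzymes that make serine from a glycolytic intermediate, 2 fell and the last of the pathway did not pass the threshold. PHGDH, the dehydrogenase that opens the pathway, was at 13.8 and 13.0 RPKM in untreated 1 and 2 and at 3.46 and 2.43 RPKM in GADD45g 1 and 2. The groups did not overlap, and the level was 4.56-fold lower (log2 change -1.88 ± 0.23 SE, limma adjusted p = 0.000120). PSAT1, the aminotransferase of the next step, was at 38.4 and 23.7 RPKM against 8.03 and 4.64 RPKM. It was 4.90-fold lower (log2 change -2.13 ± 0.30, limma adjusted p = 0.000318), and in each group the replicate 1 library was the higher. PSPH, the phosphatase that releases serine, was at 5.86 and 5.75 RPKM against 4.54 and 3.70 RPKM. Its GADD45g values were also under both untreated values, but the difference did not pass (log2 change -0.42 ± 0.21, limma adjusted p = 0.151) and lay near the median of all genes. PSAT1 had the highest RPKM of the 3 in all 4 libraries. PSPH had the lowest in the untreated libraries, and PHGDH in the GADD45g libraries.

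Both serine hydroxymethyltransferases fell. The mitochondrial SHMT2 was at 38.5 and 40.3 RPKM in the untreated and at 19.2 and 15.3 RPKM in the GADD45g libraries, 2.28-fold lower (limma adjusted p = 0.00280). The cytosolic SHMT1 was at 6.15 and 7.28 RPKM against 3.13 and 3.30 RPKM, 2.09-fold lower (limma adjusted p = 0.00838). SHMT2 remained the more abundant of the pair, 6.27 and 5.54 times SHMT1 in the untreated and 6.13 and 4.64 times in the GADD45g libraries. Without GADD45g replicate 1 or 2 the difference of SHMT1 did not pass (limma adjusted p = 0.0757 and 0.0594), and its adjusted p over all alternatives ran from 0.00109 to 0.0757. GLDC, the decarboxylase of the glycine cleavage system, was near the limit of detection with 4 to 16 reads and 0.0274 to 0.0909 RPKM in a library, and was not tested.

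Among the folate enzymes the synthetases of both compartments fell, while the difference of the mitochondrial dehydrogenase MTHFD2 did not pass. MTHFD1L, the mitochondrial enzyme that releases formate, was at 17.4 and 17.3 RPKM in the untreated libraries. In GADD45g 1 and 2 it was at 1.44 RPKM (135 reads, 95% Poisson interval 1.21 to 1.71) and 1.00 RPKM (79 reads, 0.792 to 1.25). These intervals cover counting error only. The level was 14.2-fold lower (log2 change -3.05 ± 0.22, limma adjusted p = 5.05e-06), the lowest change of all members and the 16th from the lowest of all tested genes. MTHFD1, the cytosolic trifunctional enzyme that takes up formate into folate, was at 20.9 and 19.2 RPKM against 3.64 and 3.55 RPKM. It was 5.58-fold lower (log2 change -2.20 ± 0.21, limma adjusted p = 3.57e-05), with nearly equal libraries in each group.

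MTHFD2, the mitochondrial dehydrogenase and cyclohydrolase that precedes MTHFD1L, was at 31.7 and 20.8 RPKM in the untreated libraries. It was at 22.4 and 17.4 RPKM in the GADD45g libraries. It was the only tested member whose groups overlapped, since GADD45g 1 lay above untreated 2 (log2 change -0.36 ± 0.27, limma adjusted p = 0.306). The estimate leaned on single libraries. It was -0.07 without untreated replicate 1, -0.66 without untreated replicate 2, -0.54 without GADD45g replicate 1 and -0.19 without GADD45g replicate 2. Its paralog MTHFD2L had 0.325 to 0.456 RPKM in all 4 libraries, and ALDH1L2, the mitochondrial formyl-tetrahydrofolate dehydrogenase, 0.0884 to 0.255 RPKM. Both were under the filter of a mean of 1 RPKM and were not tested.

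All 3 members of the methionine cycle fell. AHCY, which clears S-adenosylhomocysteine, was at 52.0 and 63.04 RPKM against 12.4 and 9.97 RPKM. It was 5.15-fold lower (log2 change -2.27 ± 0.24, limma adjusted p = 5.56e-05). MTR, the cobalamin-dependent methionine synthase that links folate to methionine, was at 25.0 and 31.3 RPKM against 10.3 and 12.4 RPKM, 2.49-fold lower (limma adjusted p = 0.00194). MAT2A, which makes S-adenosylmethionine, was at 62.2 and 47.6 RPKM against 28.6 and 28.0 RPKM, 1.94-fold lower (limma adjusted p = 0.0119). The groups of all 3 were separate, with the widest gap in AHCY. For MAT2A the adjusted p was 0.0667 without untreated replicate 1, 0.0526 without GADD45g replicate 1 and 0.0626 without GADD45g replicate 2, within a range of 0.00119 to 0.0667 over all alternatives.

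PRPP synthetases make the activated ribose on which both nucleotide pathways depend, and both members fell. PRPS1 was at 44.1 and 34.97 RPKM against 17.0 and 12.9 RPKM, 2.65-fold lower (limma adjusted p = 0.00157). PRPS2 was at 32.9 and 20.5 RPKM against 14.6 and 11.1 RPKM, 2.08-fold lower (limma adjusted p = 0.0157). Replicate 1 was the higher in both groups for each gene. Without untreated replicate 1 the log2 change of PRPS2 was -0.65 and did not pass (limma adjusted p = 0.117), nor did it without GADD45g replicate 2 (0.119). Its adjusted p over all alternatives ran from 0.000491 to 0.119.

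The enzymes that build inosine monophosphate (IMP), the common purine precursor, fell without exception among the 5 that were tested, with a median log2 change of -2.03. PFAS, the amidotransferase of the fourth step, was at 6.65 and 11.03 RPKM in the untreated libraries. It was at 0.769 RPKM (94 reads) and 0.813 RPKM (84 reads) in the GADD45g libraries, 11.2-fold lower (log2 change -2.42 ± 0.25, limma adjusted p = 5.23e-05). It passed the filter on low values through its untreated libraries. PAICS was at 38.0 and 42.1 RPKM against 5.10 and 6.72 RPKM, 6.78-fold lower (log2 change -2.58 ± 0.23, limma adjusted p = 2.31e-05). ATIC, which carries out the last steps to IMP with a formyl group from folate, was at 28.3 and 27.5 RPKM against 6.18 and 5.98 RPKM, 4.59-fold lower (limma adjusted p = 5.77e-05). In all 3 genes the groups were widely separate.

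PPAT, the amidotransferase that commits PRPP to purines, was at 6.29 and 5.05 RPKM against 1.43 and 1.58 RPKM, 3.77-fold lower (limma adjusted p = 0.000584). PPAT and PAICS, whose start region is printed above, thus both fell, and PAICS was the more abundant per length in every library. GART, a trifunctional enzyme that also uses a folate formyl group, was at 26.9 and 30.2 RPKM against 8.77 and 11.4 RPKM, 2.83-fold lower (limma adjusted p = 0.000834). ADSL, the lyase of the pathway, was at 8.20 and 9.92 RPKM in the untreated libraries and at 2.34 RPKM in GADD45g 2. Its row lay past the end of the GADD45g 1 file as used here, so it was not tested. The value in GADD45g 2 was below both untreated values.

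In the guanine branch the isoenzymes of IMP dehydrogenase, the rate-limiting step towards guanine nucleotides, had unequal changes. IMPDH2 was at 98.9 and 134 RPKM in the untreated and at 18.7 and 19.6 RPKM in the GADD45g libraries, 6.09-fold lower (log2 change -2.53 ± 0.25, limma adjusted p = 3.84e-05). IMPDH1 was at 39.5 and 55.2 RPKM against 32.2 and 29.1 RPKM. Its groups did not overlap, but the difference did not pass (log2 change -0.59 ± 0.25, limma adjusted p = 0.0848), and without untreated replicate 2 the log2 change was -0.36. IMPDH2 was 2.51 and 2.43 times as abundant per length as IMPDH1 in the untreated libraries and 0.579 and 0.675 times in the GADD45g libraries, so the order of the isoenzymes was the opposite in both libraries of each group. GMPS, which converts xanthosine monophosphate to GMP, was at 11.6 and 12.01 RPKM against 4.92 and 6.02 RPKM, 2.16-fold lower (limma adjusted p = 0.00447). Its call was lost without GADD45g replicate 1 (limma adjusted p = 0.0589, with a range of 0.000250 to 0.0589 over the alternatives).

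Both purine salvage enzymes, which rebuild nucleotides from free bases with PRPP, fell. APRT, for adenine, was at 26.4 and 32.3 RPKM against 9.04 and 9.72 RPKM, 3.12-fold lower (limma adjusted p = 0.000437). HPRT1, for hypoxanthine and guanine, was at 78.8 and 43.4 RPKM against 28.9 and 27.3 RPKM, 2.17-fold lower (log2 change -1.03 ± 0.29, limma adjusted p = 0.0170). The untreated values of HPRT1 were 1.81-fold apart, and its GADD45g values nearly equal. Without untreated replicate 1 its log2 change was -0.61 and its limma adjusted p 0.104, and without GADD45g replicate 1 and 2 the adjusted p was 0.0555 and 0.0768. Over all alternatives it ran from 0.000230 to 0.129.

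**Figure D2:**
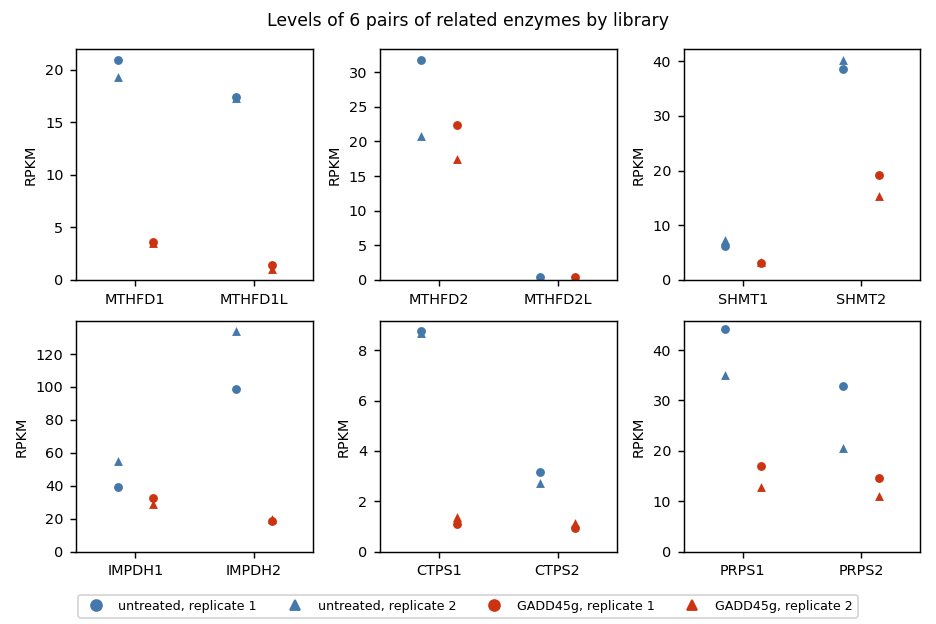
RPKM (linear axis from 0) of 6 pairs of related enzymes in each library, with blue for untreated, red for GADD45g, circles for replicate 1 and triangles for replicate 2. IMPDH2 lies above IMPDH1 in both untreated libraries and below it in both GADD45g libraries, and CTPS1 and CTPS2 are close together only in the GADD45g libraries.

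The plot of enzyme pairs sets the isoenzymes side by side. CTPS1 was 2.76 and 3.17 times as abundant per length as CTPS2 in the untreated libraries and 1.19 and 1.22 times in the GADD45g libraries. MTHFD1 exceeded MTHFD1L 1.20-fold and 1.11-fold in the untreated libraries and 2.52-fold and 3.55-fold in the GADD45g libraries. PRPS1 exceeded PRPS2 1.34-fold and 1.70-fold in the untreated libraries and 1.17-fold and 1.16-fold in the GADD45g libraries. The ratio within a library was lower in both GADD45g libraries for CTPS1 over CTPS2 and PRPS1 over PRPS2, and higher for MTHFD1 over MTHFD1L. The differences between the genes of a pair were not tested.

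All 5 members of pyrimidine synthesis fell. CAD, the trifunctional enzyme of the first steps, was at 19.0 and 32.2 RPKM against 3.05 and 3.08 RPKM, 8.35-fold lower (log2 change -2.66 ± 0.26, limma adjusted p = 4.07e-05). Its untreated libraries were 1.69-fold apart, and both lay far above the GADD45g libraries. DHODH, the mitochondrial dehydrogenase, was at 2.84 and 3.27 RPKM against 0.650 and 0.639 RPKM, 4.74-fold lower (limma adjusted p = 0.000904), and passed the filter through its untreated libraries. UMPS, which completes uridine monophosphate, was at 8.69 and 5.16 RPKM against 2.24 and 1.70 RPKM, 3.52-fold lower (limma adjusted p = 0.00177, and 0.0626 without the filter, the highest over its alternatives, from 4.74e-08). CTPS1, the cytidine triphosphate synthetase of proliferating lymphoid cells, was at 8.76 and 8.69 RPKM against 1.10 and 1.38 RPKM. It was 7.04-fold lower (log2 change -2.12 ± 0.21, limma adjusted p = 4.17e-05). CTPS2 was at 3.18 and 2.74 RPKM against 0.922 and 1.14 RPKM, 2.88-fold lower (limma adjusted p = 0.00516), and did not pass without GADD45g replicate 1 (0.0646, the highest adjusted p over its alternatives, from 0.000111).

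RNA of the enzymes that supply deoxynucleotides fell in 7 of 7 tested members. TYMS, the thymidylate synthase that uses a folate one-carbon unit, was at 50.7 and 48.7 RPKM against 8.74 and 11.8 RPKM. It was 4.83-fold lower (log2 change -2.18 ± 0.24, limma adjusted p = 6.83e-05). RRM2, the regulatory subunit of ribonucleotide reductase, was at 58.9 and 52.2 RPKM against 23.0 and 25.4 RPKM, 2.30-fold lower (limma adjusted p = 0.00254). RRM1, the catalytic subunit, was at 27.6 and 28.8 RPKM against 12.7 and 16.8 RPKM, 1.91-fold lower (log2 change -0.90 ± 0.24, limma adjusted p = 0.0115). RRM2 was more abundant per length than RRM1 in all 4 libraries. The call of RRM1 was lost without untreated replicate 1 or 2 (limma adjusted p = 0.0501 and 0.0548) and without GADD45g replicate 1 (0.113), in a range of 0.00147 to 0.113 over its alternatives.

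DUT, which hydrolyses deoxyuridine triphosphate, was at 53.2 and 29.97 RPKM against 13.3 and 9.58 RPKM, 3.64-fold lower (limma adjusted p = 0.00105, and 0.0517 without the filter, the highest over its alternatives, from 1.42e-10). DCTPP1, a pyrophosphatase of modified deoxycytidine triphosphates, was at 31.3 and 22.4 RPKM in the untreated libraries. In the GADD45g libraries it was at 7.30 RPKM (218 reads, 95% Poisson interval 6.36 to 8.33) and 3.29 RPKM (83 reads, 2.62 to 4.08), 5.07-fold lower than untreated (limma adjusted p = 0.000348). Its GADD45g libraries thus differed by more than counting error, yet both were below both untreated libraries.

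DCK, the kinase that activates deoxycytidine and the drug cytarabine, was at 19.0 and 8.42 RPKM against 3.90 and 3.20 RPKM, 3.86-fold lower (log2 change -1.60 ± 0.32, limma adjusted p = 0.00261). Its untreated values were 2.26-fold apart, the widest such gap of the tested members, and without untreated replicate 1 the log2 change was -1.05. Its limma adjusted p was 0.0889 without the filter, the highest over its alternatives, from 8.98e-10. TK1, the cytosolic thymidine kinase, was at 7.66 and 9.48 RPKM against 3.11 and 2.63 RPKM, 2.99-fold lower (limma adjusted p = 0.000993). NME1, a nucleoside diphosphate kinase, was at 9.73 and 6.66 RPKM in the untreated libraries and at 0.710 RPKM (39 reads) in GADD45g 2. It was past the end of the GADD45g 1 file and was not tested. Its reads may be shared with the neighbouring NME2 and with transcripts that run through both genes.

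**Figure D3:**
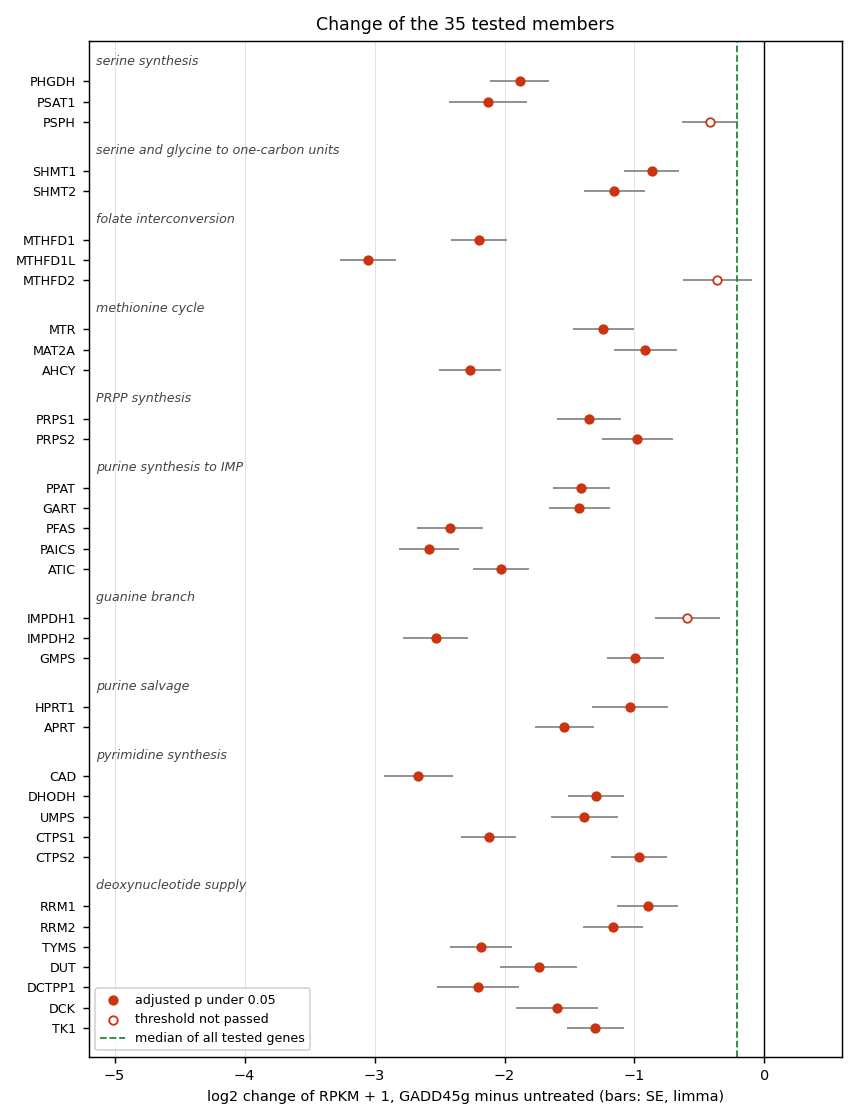
Log2 change of RPKM + 1 (GADD45g minus untreated) of the 35 tested members, grouped by role, with bars of 1 SE from limma. Filled points passed an adjusted p of 0.05 and open points (PSPH, MTHFD2, IMPDH1) did not. The dashed line is the median of all tested genes, -0.21, and all 35 points lie to its left.

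The plot of changes by role sets the roles side by side. Among those with at least 3 tested members, the median log2 change was -2.20 in folate interconversion, -2.03 in purine synthesis to IMP and -1.88 in serine synthesis. It was -1.60 in deoxynucleotide supply, -1.39 in pyrimidine synthesis, -1.24 in the methionine cycle and -0.99 in the guanine branch. These are medians of 3 to 7 genes, and differences between roles were not tested. PSPH, MTHFD2 and IMPDH1 each stood beside an enzyme of the same role with a far lower change, which was PSAT1 for PSPH, MTHFD1L for MTHFD2 and IMPDH2 for IMPDH1.

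Other genes of folate, serine and nucleotide metabolism, from a list of 89 that holds none of the members, changed in both directions. Of the 63 tested, 20 fell, 11 rose and 32 did not pass, with a median log2 change of -0.35. These shares, 31.7% lower and 17.5% higher, stood beside 26.7% and 12.2% of all tested genes. With TMM scaling the split was 16 lower and 16 higher, and for all tested genes 2046 lower and 1917 higher, in place of 2871 and 1314. The members gave 28 lower and 0 higher under that scaling.

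**Figure D4:**
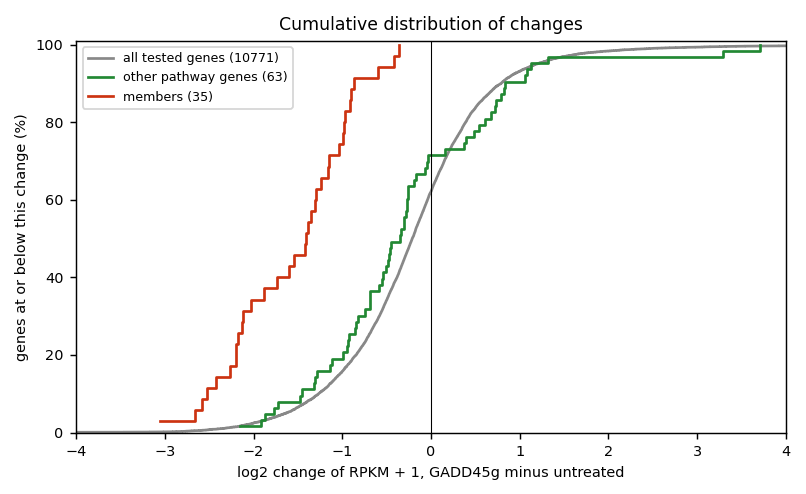
Cumulative share of genes (%) at or below a given log2 change of RPKM + 1 (GADD45g minus untreated), for 10771 tested genes (grey), 63 other pathway genes (green) and 35 members (red). The red curve ends at -0.36, while the green curve runs close to the grey one and reaches 3.70. The axis is cut at -4 and 4.

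The cumulative plot of changes places the 3 groups on 1 axis. The other pathway genes lay close to all tested genes over most of the range, and the members lay to the left of both. Among the tested other pathway genes, the largest increases were in breakdown and interconversion. UPP1, the uridine phosphorylase, was at 4.58 and 3.72 RPKM against 75.9 and 57.3 RPKM, 16.0-fold higher (log2 change 3.70 ± 0.24, limma adjusted p = 2.75e-06). AMPD3, an AMP deaminase, was at 7.74 and 8.27 RPKM against 82.8 and 91.4 RPKM, 10.9-fold higher (log2 change 3.29 ± 0.23, limma adjusted p = 3.95e-06). Its paralog AMPD2 was 2.72-fold higher (limma adjusted p = 0.00125). The other 8 that rose, named after their values were seen, were MTHFS and CTH among folate and methyl group enzymes, SDSL for serine breakdown, the purine enzymes PNP and GUK1, and CDA, DPYD and UPB1 of pyrimidine salvage and breakdown.

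Several carriers and kinases of the same pathways fell. SLC29A1, the equilibrative nucleoside transporter that also carries cytarabine, was at 52.6 and 61.4 RPKM against 14.3 and 9.96 RPKM, 4.70-fold lower (limma adjusted p = 9.80e-05). SLC19A1, the reduced folate carrier through which methotrexate enters, was at 7.48 and 10.4 RPKM against 1.70 and 1.68 RPKM, 5.27-fold lower (limma adjusted p = 0.000132). Both had separate groups. The uridine-cytidine kinase UCK2 was 3.78-fold lower, the nucleoside diphosphate kinase NME4 4.94-fold, AK3 3.07-fold, the inosine triphosphatase ITPA 2.92-fold, the mitochondrial nucleotidase NT5M 5.19-fold and the lipoamide dehydrogenase DLD 2.60-fold (limma adjusted p of these 6 from 0.000166 to 0.00207). NT5M was at 2.17 and 3.67 RPKM in the untreated libraries. In GADD45g 1 and 2 it was at 0.648 RPKM (24 reads) and 0.479 RPKM (15 reads). It passed the filter on low values through its untreated libraries.

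The paralogs TK2 and RRM2B did not pass the threshold. TK2, the mitochondrial thymidine kinase, was at 3.79 and 3.798 RPKM against 2.71 and 2.79 RPKM (log2 change -0.35 ± 0.21, limma adjusted p = 0.205). RRM2B, a subunit of ribonucleotide reductase, was at 12.1 and 6.27 RPKM against 16.1 and 14.1 RPKM (log2 change 0.72 ± 0.28, limma adjusted p = 0.0680). Whether TK1 and TK2, or RRM2 and RRM2B, changed differently was not tested.

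**Figure D5:**
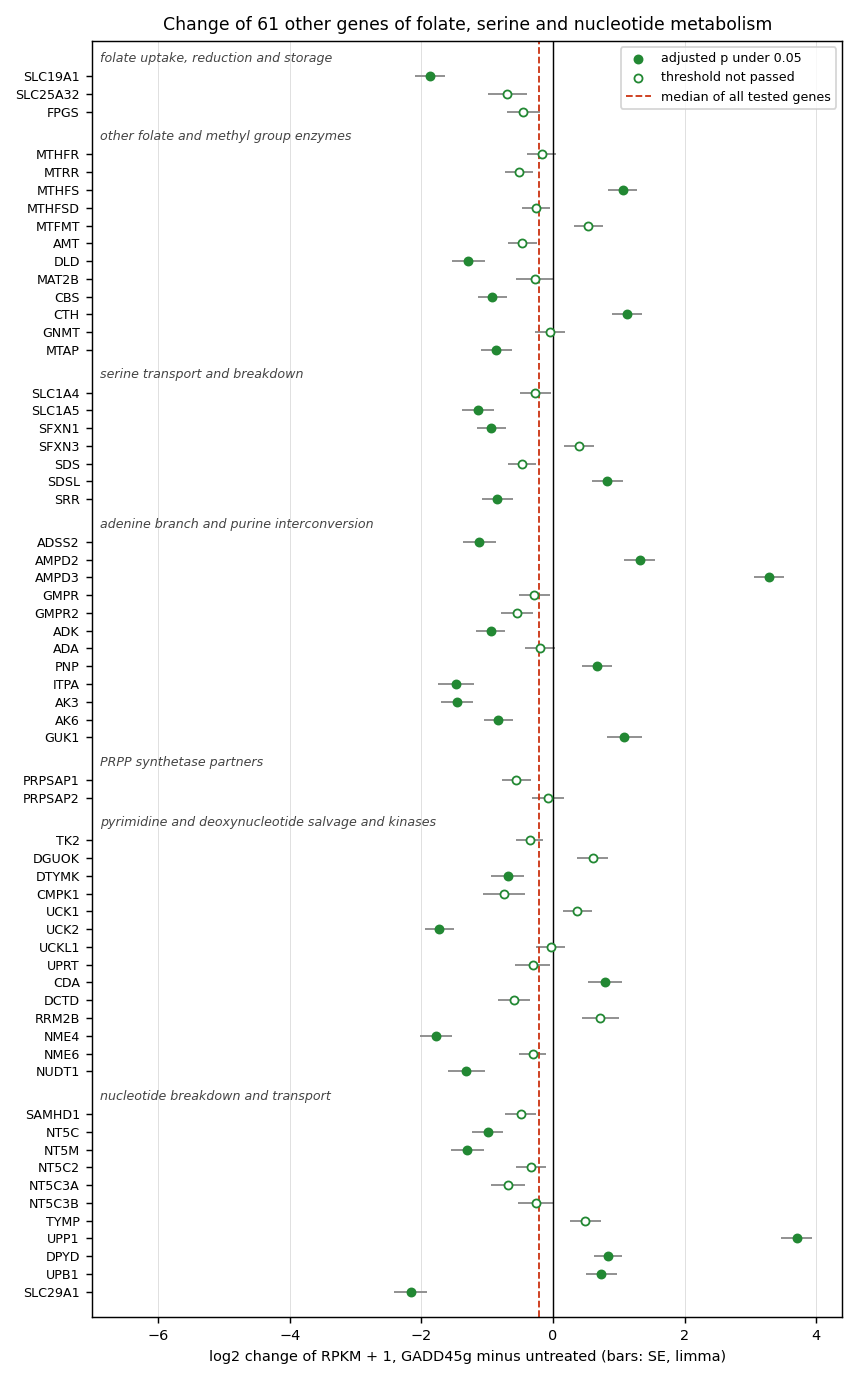
Log2 change of RPKM + 1 (GADD45g minus untreated) of 61 of the 63 other tested genes of these pathways, by function, with bars of 1 SE from limma. Filled points passed an adjusted p of 0.05. UPP1 at 3.70 and AMPD3 at 3.29 lie furthest right and SLC29A1 at -2.16 furthest left, and the red dashed line is the median of all tested genes.

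Most S phase genes fell as well, while regulators known for these enzymes were mixed. Of 29 tested S phase and replication genes outside nucleotide synthesis, 27 fell and 1 (GINS4, named after its value was seen) rose. Of all tested genes, 26.7% fell and 12.2% rose. The median log2 change of the 29 was -1.55, beside -1.41 for the members. MCM4, a subunit of the replicative helicase, was at 32.1 and 36.6 RPKM against 4.84 and 4.85 RPKM, 7.08-fold lower (limma adjusted p = 1.63e-05). MCM3, MCM2 and MCM6 were 6.52-fold, 6.07-fold and 4.69-fold lower, and GINS1 7.46-fold. MYC, which is known to drive many of the members, was at 35.1 and 42.9 RPKM against 1.59 and 1.07 RPKM (log2 change -4.10 ± 0.23, limma adjusted p = 1.05e-06).

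Where 26.7% of all tested genes fell and 12.2% rose, 4 of 7 tested regulators fell, 1 rose and 2 did not pass. Those that fell included MYC, E2F1 and E2F2, NFE2L2 rose (1.80-fold higher, limma adjusted p = 0.0272), and ATF4 and E2F3 did not pass, all but MYC being named after their values were seen. E2F1, which the S phase list also holds, was at 10.3 and 9.93 RPKM against 2.26 and 1.83 RPKM, 4.96-fold lower (limma adjusted p = 9.05e-05). ATF4, a regulator of serine synthesis enzymes and of MTHFD2, was at 78.2 and 70.9 RPKM against 76.0 and 56.0 RPKM, with overlapping groups (log2 change -0.19 ± 0.25, limma adjusted p = 0.595). ATF4 is largely regulated in translation, which these data do not measure. The part that replication, MYC, E2F1 or ATF4 had in the members' levels was not tested.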

How the data were processed

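RNA-seq of 2 untreated and 2 GADD45g MOLM-13 libraries was used. The deposited values are RPKM per Ensembl gene ID, per the file headers. TopHat, Cuffnorm and Cuffdiff, with hg19 as the build, are listed in the submitters' processing notes. The sources used here give no strand, roles or versions. The authors' RPKM values were whole reads scaled by length and depth: reads were recovered for 10816 of 10818 IDs (all values whole within 0.005 reads), giving 18778791 and 15683931 reads (untreated 1 and 2) and 18895470 and 15968886 reads (GADD45g 1 and 2). As used here, the GADD45g 1 file breaks off after 27332 IDs, and only genes listed in all files were tested. Of all IDs, 51996 matched a symbol; rows sharing a symbol were added up.

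The filter was a mean of 1 RPKM or more over the 4 libraries. limma 3.58.1 (R 4.3.3; lmFit, eBayes with trend) compared the groups on log2(RPKM + 1), with a two-sided test, Benjamini-Hochberg adjustment across all tested genes and 0.05 as threshold (2 residual and 8.72 prior degrees of freedom). The code was tested on simulated data. TMM scaling was computed with purpose-written code, as an unweighted trimmed mean of log2 ratios of RPKM between libraries. Folds are ratios of group means of RPKM. The members and lists were chosen with earlier results of these data known. Named are all 40 members, the 12 other pathway genes with the smallest adjusted p with TK2 and RRM2B, the 6 comparison genes with the smallest adjusted p, and GADD45G; other genes were named after their values were seen, and some genes are not reported here. Promoters are RefSeq GRCh38.p14. Counts by pandas 2.3.3 and figures by matplotlib 3.10.9. Untreated replicate 2 and GADD45g replicate 2 are the libraries with a suffix in their titles. With 2 libraries a group, p-values rest on the spread pooled by limma. Reads of overlapping genes cannot be told apart.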

Additional observations from a re-analysis of the deposited data

How the results depend on the processing

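No member changed direction under any of the 17 alternatives run, and 22 of the 32 called members kept their call in all of theirs. The other 10 lost it in 28 fits, and IMPDH1 gained it in 1. Members called lower numbered 23 to 33, and 0 were called higher in every fit. The median log2 change of the members, -1.41, was -1.73 with a pseudocount of 0.1, -1.07 with a pseudocount of 5, -1.19 with TMM scaling, -1.26 with upper quartile scaling, -1.19 with quantile normalization, -1.19 with the median change shifted to 0 and -1.77 with voom on recovered reads. The last 2 were added after seeing the data. Without a filter on low values, 23 of 38 members were called lower. Of the 20689 genes tested in that fit, 1639 were called lower and 823 higher, in place of 2871 and 1314 of 10771. Of 85 other pathway genes, 12 were then called lower and 6 higher, in place of 20 and 11 of 63. With 1 library left out, all tested genes gave 1766 to 2449 lower and 798 to 1133 higher calls, the other pathway genes 13 to 21 lower and 6 to 9 higher, and the members 26 to 31 lower. The cause of these differences was not tested, but such fits hold fewer libraries, and a lone library is assumed to vary like the others.

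With the replicate block, in which suffixes pair the libraries, 33 members were called lower, the added gene being IMPDH1 (limma adjusted p = 0.0450, range 0.0450 to 0.311 over its alternatives). The labels do not say that the suffix pairs libraries, and deviations of same-numbered libraries had r = 0.35 across genes. All tested genes gave 3393 lower and 1594 higher calls in that fit. GLDC, ALDH1L2 and MTHFD2L were tested only without the filter, and low read numbers limit their precision.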
